A study of Homo sapiens with 4 samples.

Results

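The 10 genes described here encode the machinery by which cells sense oxygen through the hypoxia-inducible factors (HIFs): the prolyl hydroxylases EGLN1, EGLN2 and EGLN3, the asparaginyl hydroxylase HIF1AN, the ubiquitin ligase subunit VHL, the alpha subunits EPAS1 and HIF3A, the beta subunits ARNT and ARNT2, and the HIF inhibitor CITED2. They were picked by symbol for their place in the pathway, with earlier results of these data known, and all 10 were found among 56627 genes listed on standard chromosomes. Of the 10, 9 had a mean of at least 1 FPKM (fragments scaled by exon length in kb and by the number mapped) over the 4 libraries, and HIF3A did not. HIF1A, the gene of the remaining alpha subunit, was left out because its identifier stands on 2 lines of the deposited table with inconsistent values.

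RNA-Seq was performed on FaDu, an established line of squamous carcinoma cells of the hypopharynx, to ask which genes respond to hypoxia and how knockdown of TET1 alters that response. TET1 is a dioxygenase that oxidizes 5-methylcytosine in DNA to 5-hydroxymethylcytosine. There were 4 groups with 1 library each: scrambled control in normoxia (N-scr), TET1 knockdown in normoxia (N-si), scrambled control in hypoxia (H-scr) and TET1 knockdown in hypoxia (H-si). All 4 groups carried a lentiviral short hairpin vector, with a scrambled hairpin in the controls. The study lists 1 TET1 hairpin sequence, so effects of that hairpin cannot be told apart from those of lower TET1. Normoxic cells were kept in air with 5% CO2, and hypoxic cells spent 19 h at 1% O2, with 5% CO2 and the rest, 94%, as N2. One cell line with no replicate culture was used, so each comparison is between single libraries, without a test or a p-value. The intervals given are 95% counting intervals (exact, Clopper-Pearson, from approximate reads), which cover counting error only.

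In oxygenated cells, prolyl hydroxylases of the EGLN family (also called PHDs) hydroxylate HIF alpha subunits, which lets the VHL ubiquitin ligase bind them and send them to the proteasome. HIF1AN (FIH) hydroxylates an asparagine in the same proteins and thereby keeps the coactivators CBP and p300 away. When oxygen is scarce these enzymes slow down, the alpha subunits accumulate, pair with ARNT and switch on hypoxia target genes. EGLN3 and EGLN1 are well-known targets themselves, which closes a negative feedback loop. These steps act on proteins, whereas the values here are levels of mRNA.

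TET1 was listed at low levels in every library. Its FPKM was 0.129 (N-scr) and 0.0493 (N-si) under normoxia and 0.331 (H-scr) and 0.122 (H-si) under hypoxia, which corresponds to about 27, 11, 74 and 25 reads. TET1 mRNA was thus lower in both knockdown libraries, at 0.369 of the control level in hypoxia (interval 0.224 to 0.587) and 0.381 in normoxia (interval 0.171 to 0.794). Depths recovered from the values lay between 22450000 (H-si) and 24500000 reads (H-scr). All 8 squamous epithelial markers examined were listed, with KRT5 and KRT14 among them. Their summed level was 4906 FPKM (N-scr) and 2019 (N-si) under normoxia and 7672 (H-scr) and 4060 (H-si) under hypoxia, so the knockdown libraries had the lower sum in each oxygen state, a sum made up mostly of keratins. The epithelial adhesion genes CDH1 and EPCAM went the other way, at 1.49- and 1.33-fold the control level after knockdown in normoxia and at 1.37- and 1.61-fold in hypoxia. KRT14 was at 0.487 FPKM in N-si and 1.41 in H-si against 42.1 in N-scr and 99.9 in H-scr. Of 5 fibroblast markers, COL1A1 alone reached 1 FPKM (5.29 to 37.0), while COL1A2 and LUM were at 0 in all libraries. Of 5 leukocyte markers, CD68 alone did so (19.8 to 26.8), and CD3E was at 0 throughout. In such bulk RNA, fewer cells of a kind and less RNA per cell cannot be told apart.

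**Figure D1:**
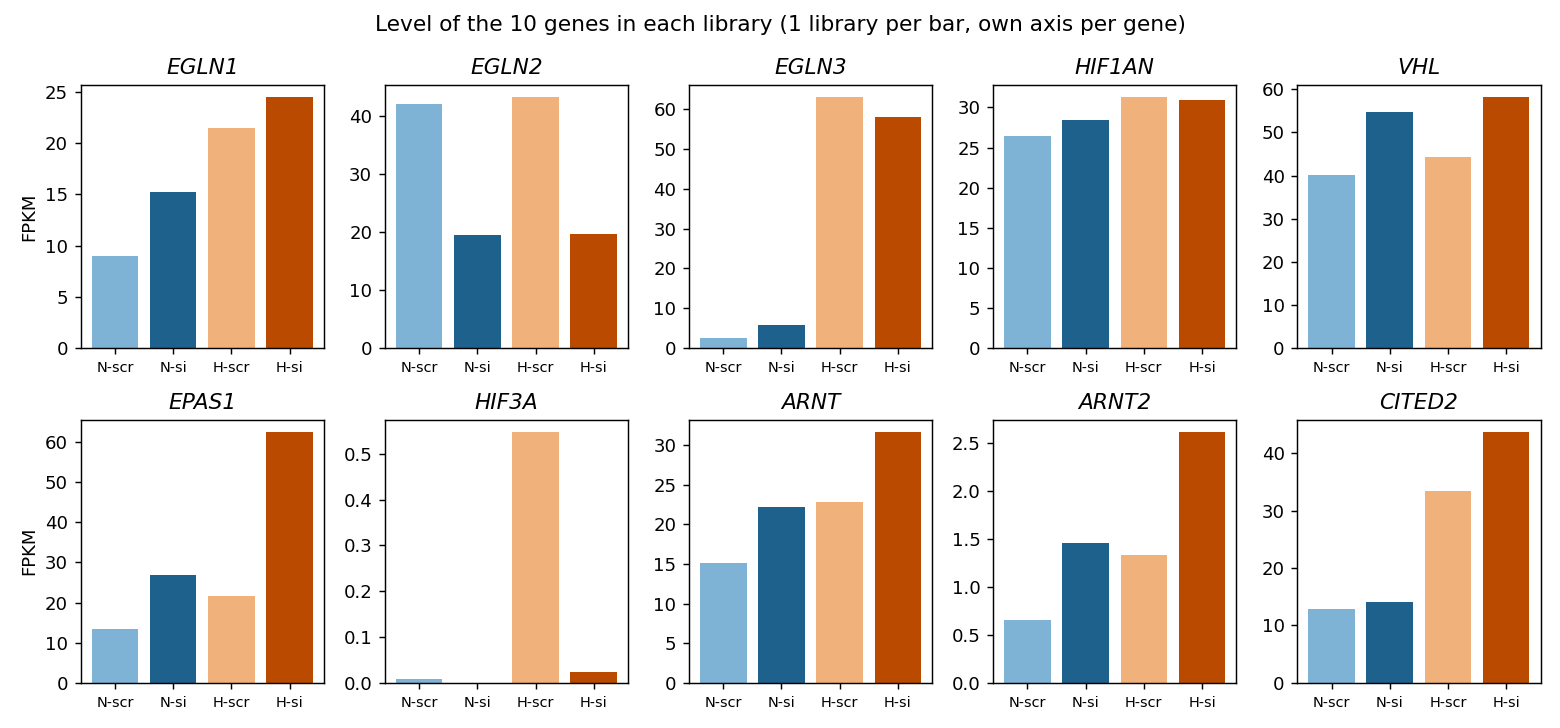
Level of each of the 10 genes in FPKM (vertical axis, starting at 0, with its own scale per gene) in the 2 normoxic (blue) and 2 hypoxic (orange) libraries, darker after TET1 knockdown, 1 library per bar and therefore no error bars. EGLN3 is at 2.62 and 5.68 in the normoxic bars against 62.9 and 57.9 in the hypoxic ones, EGLN2 is lower in both knockdown bars, and EPAS1 is highest in H-si at 62.4.

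The prolyl hydroxylases showed 3 different patterns. EGLN3 was far higher in hypoxia, EGLN1 was moderately higher, and EGLN2 was at nearly the same level in both oxygen states but lower after TET1 knockdown. EGLN3 (PHD3; ENSG00000129521, chr14:34393437-34931980, minus strand, hg19) was at 2.62 FPKM (N-scr) and 5.68 (N-si) under normoxia and 62.9 (H-scr) and 57.9 (H-si) under hypoxia. Both hypoxic libraries were therefore at least 10-fold above both normoxic ones. In scrambled cells the level was 24.1-fold higher in hypoxia (interval 20.4 to 28.6), the 11th largest hypoxic increase among 11907 protein-coding genes with a mean of at least 1 FPKM. In TET1-si cells it was 10.2-fold higher (interval 9.12 to 11.4), ranking 25th. The hypoxia response was therefore smaller after knockdown, by a difference of -1.21 on the log2(FPKM + 0.1) scale (interval of the log2 ratio -1.52 to -0.95). The smaller fold went with a higher starting level: EGLN3 was 2.17-fold higher in N-si than in N-scr (interval 1.79 to 2.65), whereas H-si was at 0.920 of H-scr (interval 0.878 to 0.965). The listed EGLN3 locus spans 538544 bp and contains the gene SPTSSA, a subunit of serine palmitoyltransferase, which stood at 32.5 and 22.7 FPKM in N-scr and N-si, and at 45.3 and 24.6 in the hypoxic pair. With the scrambled hairpin SPTSSA was thus 1.39-fold higher in hypoxia, against 24.1-fold for EGLN3.

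EGLN1 (PHD2; ENSG00000135766, chr1:231499497-231560790, minus strand) encodes the main HIF prolyl hydroxylase in oxygenated cells. Its FPKM was 8.99 (N-scr) and 15.3 (N-si) under normoxia and 21.5 (H-scr) and 24.5 (H-si) under hypoxia, so the order of libraries followed oxygen first and knockdown second. Hypoxia went with a 2.40-fold higher level in scrambled cells (interval 2.21 to 2.60) and a 1.60-fold higher level in TET1-si cells (interval 1.502 to 1.71). As with EGLN3, the normoxic level was the one that stood apart after knockdown: N-si was 1.70-fold above N-scr, and H-si 1.14-fold above H-scr. The hypoxia response was 0.57 smaller in TET1-si cells on the log2 scale (interval of the log2 ratio -0.73 to -0.43).

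EGLN2 (PHD1; ENSG00000269858, chr19:41304901-41314338, plus strand) was at 41.9 FPKM (N-scr) and 19.5 (N-si) under normoxia and 43.1 (H-scr) and 19.6 (H-si) under hypoxia. The 4 libraries thus fell into scrambled and TET1-si pairs regardless of oxygen. The knockdown level was 0.455 of the control in hypoxia (interval 0.419 to 0.493) and 0.465 in normoxia (interval 0.429 to 0.504). On the log2 scale the hypoxic change was 0.04 in scrambled and 0.01 in TET1-si cells, both intervals included 0, and the former changed sign to -0.01 with median-of-ratios scaling. EGLN2 shares exons with the RAB4B-EGLN2 readthrough gene, listed at 1.32 to 2.35 FPKM, and how the reads were divided between them is not stated.

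The summed level of the 3 hydroxylase genes was 53.5 FPKM (N-scr) and 40.5 (N-si) under normoxia and 128 (H-scr) and 102 (H-si) under hypoxia. Because FPKM is per length, the shares of that sum can be compared between genes. EGLN2 made up 78.3% of it in N-scr and 48.2% in N-si, but 33.8% in H-scr and 19.2% in H-si. EGLN3 went the other way, from 4.89% in N-scr and 14.0% in N-si to 49.3% in H-scr and 56.8% in H-si. EGLN1 contributed 16.8% (N-scr) and 37.7% (N-si) in normoxia, against 16.9% (H-scr) and 24.0% (H-si) in hypoxia. The most abundant hydroxylase mRNA was therefore EGLN2 in both normoxic libraries and EGLN3 in both hypoxic ones.

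**Figure D2:**
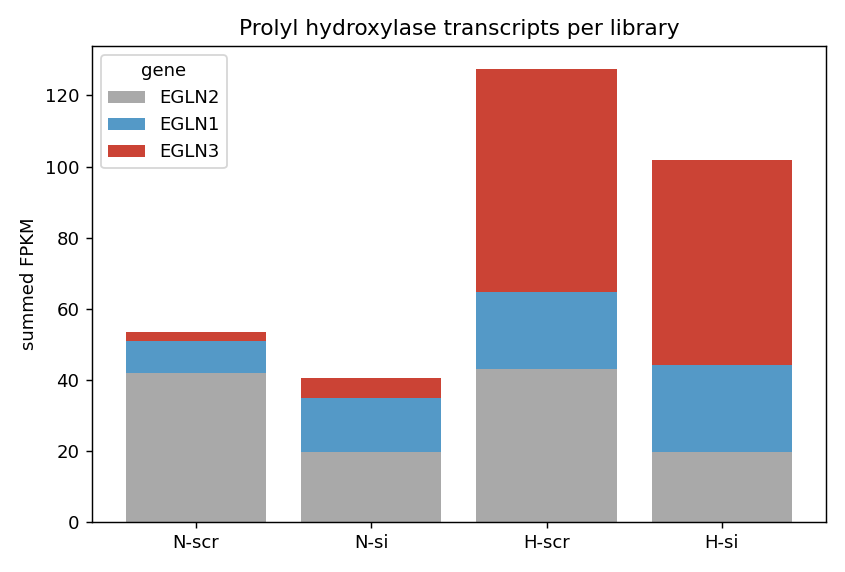
Summed FPKM of the prolyl hydroxylase genes (vertical axis) in each library (horizontal axis), 1 library per bar with no error bars, stacked as EGLN2, EGLN1 and EGLN3. EGLN2 forms the largest segment in N-scr (78.3%) and N-si (48.2%), and EGLN3 in H-scr (49.3%) and H-si (56.8%).

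HIF binds the core letters ACGTG or GCGTG, so the 250 bases before the start of each gene were searched for both on either strand in RefSeq sequence (build GRCh38.p14). RefSeq windows were at hand for 8 of the 10 genes, not for VHL and ARNT2. Only the first listed start of each gene was searched, although EGLN2 has 2 listed starts and HIF3A and CITED2 have 3 each. The windows of EGLN1, EGLN2, EGLN3 and CITED2 are printed because 3 of these genes were among those at least 2-fold higher in hypoxia while EGLN2 was level. Each runs 5′ to 3′ toward the gene start, with matches in capitals. They lie at chr1:231422288-231422537 (minus strand), chr19:40798941-40799190 (plus strand), chr14:33951075-33951324 (minus strand) and chr6:139374649-139374898 (minus strand), in that order.
EGLN1: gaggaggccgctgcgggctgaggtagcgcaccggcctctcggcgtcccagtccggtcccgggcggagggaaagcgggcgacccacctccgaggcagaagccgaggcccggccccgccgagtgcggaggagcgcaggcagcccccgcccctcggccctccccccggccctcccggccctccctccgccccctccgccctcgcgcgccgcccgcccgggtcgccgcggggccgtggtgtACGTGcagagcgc
EGLN2: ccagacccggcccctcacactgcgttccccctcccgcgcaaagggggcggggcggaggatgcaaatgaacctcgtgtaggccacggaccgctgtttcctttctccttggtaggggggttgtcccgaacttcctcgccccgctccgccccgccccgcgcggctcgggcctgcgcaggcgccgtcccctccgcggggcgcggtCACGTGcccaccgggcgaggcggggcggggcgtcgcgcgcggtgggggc
EGLN3: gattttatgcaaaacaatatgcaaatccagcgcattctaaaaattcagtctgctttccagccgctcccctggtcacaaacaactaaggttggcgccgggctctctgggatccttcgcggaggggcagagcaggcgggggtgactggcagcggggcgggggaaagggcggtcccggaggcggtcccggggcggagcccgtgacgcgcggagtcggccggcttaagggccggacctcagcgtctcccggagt
CITED2: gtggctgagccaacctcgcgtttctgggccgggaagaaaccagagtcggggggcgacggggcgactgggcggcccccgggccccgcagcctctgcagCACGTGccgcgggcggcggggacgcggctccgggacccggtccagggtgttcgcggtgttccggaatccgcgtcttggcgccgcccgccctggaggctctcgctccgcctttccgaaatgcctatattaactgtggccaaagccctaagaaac

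The EGLN1 window held 1 match, ACGTG at -13 to -9 counted from the first transcribed base. EGLN2 and CITED2 each held the palindrome CACGTG, at -49 to -44 and at -153 to -148, which counts once on each strand and is also the letters of the general E-box. The EGLN3 window held neither core. Among the remaining genes, EPAS1 had 1 GCGTG, HIF3A had 3, and HIF1AN and ARNT had none. At least 1 match was present in 43.2% of 35116 windows over all genes, ACGTG in 18.5% and CACGTG in 6.34%. Those windows cover every listed start of 27305 genes. In the windows searched, the presence of these letters did not separate the genes that were higher in hypoxia from those that were not. It says nothing about sites elsewhere or before the other listed starts.

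HIF1AN and VHL differed little between oxygen states. HIF1AN (FIH; ENSG00000166135, chr10:102288829-102309763, plus strand) stood at 26.4 FPKM (N-scr) and 28.4 (N-si) under normoxia and 31.2 (H-scr) and 30.9 (H-si) under hypoxia, in relative terms the narrowest range of the 10 genes. Its hypoxic levels were 1.18-fold higher in scrambled cells (interval 1.11 to 1.26) and 1.09-fold in TET1-si cells (interval 1.02 to 1.16). Its TET1-si change was -0.02 in hypoxia and 0.10 in normoxia on the log2 scale, and each of these changed sign under another scaling (0.05 in hypoxia with TPM rescaling, -0.06 in normoxia with median-of-ratios scaling). HIF1AN partly overlaps NDUFB8 on the opposite strand, a gene at 132 to 206 FPKM, and strand was not stated to be kept in counting.

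VHL (ENSG00000134086, chr3:10182692-10193904, plus strand), the ligase subunit that recognizes hydroxylated alpha subunits, was at 40.1 FPKM (N-scr) and 54.8 (N-si) under normoxia and 44.2 (H-scr) and 58.1 (H-si) under hypoxia. Both TET1-si libraries lay above both scrambled ones. The TET1-si level was 1.37-fold that of the control in normoxia (interval 1.30 to 1.44) and 1.31-fold in hypoxia (interval 1.25 to 1.38). Hypoxia made less difference, 1.10-fold in scrambled and 1.06-fold in TET1-si cells.

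EPAS1 (HIF-2 alpha; ENSG00000116016, chr2:46520806-46613836, plus strand) was the member with the largest upward TET1-si change in hypoxia. Its FPKM was 13.3 (N-scr) and 26.8 (N-si) under normoxia and 21.7 (H-scr) and 62.4 (H-si) under hypoxia. The last value stood more than 2-fold above each of the other 3. Knockdown went with a 2.88-fold higher level in hypoxia (interval 2.75 to 3.01) and a 2.02-fold higher level in normoxia (interval 1.90 to 2.15), the latter 1.01 on the log2 scale and hence just past 2-fold. The hypoxic level was 1.63-fold higher in scrambled cells (interval 1.53 to 1.74) and 2.33-fold higher in TET1-si cells (interval 2.23 to 2.43), a difference of 0.51 on the log2 scale (interval of the log2 ratio 0.40 to 0.62). EPAS1 and EGLN3 therefore differed in opposite directions between the hypoxia responses. The endothelial marker CDH5, a cadherin, moved along with EPAS1, at 8.75 FPKM (N-scr) and 21.7 (N-si) under normoxia and 16.01 (H-scr) and 45.5 (H-si) under hypoxia. Of 5 endothelial markers 4 were found: VWF was at most at 2.94 FPKM, and KDR and TEK were at or near 0 in all libraries. The sum of these markers was 8.93 and 22.2 FPKM in normoxia (N-scr, N-si) and 17.8 and 48.4 in hypoxia (H-scr, H-si). It was made up mostly of CDH5, so it follows 1 gene and not the marker set. Any link between CDH5 and EPAS1 was not tested.

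HIF3A (ENSG00000124440, chr19:46800303-46846690, plus strand), whose products include inhibitors of the other alpha subunits, was near the limit of detection outside H-scr. It was at 0.00771 FPKM in N-scr (about 1 read), 0 in N-si, 0.547 in H-scr (about 76 reads) and 0.0235 in H-si (about 3 reads). H-scr was 71.0 times N-scr, with an interval from 12.4 to 2841 that reflects the single read. H-si was at 0.0430 of H-scr (interval 0.00869 to 0.131). No fold is given against N-si, since a listed 0 can also be a failed estimate, and H-si and N-si were both at or under 3 reads.

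The beta subunits were higher both in hypoxia and after knockdown, by similar amounts in either state. ARNT (HIF-1 beta; ENSG00000143437, chr1:150782181-150849244, minus strand), the obligate partner of the alpha subunits, was at 15.1 FPKM (N-scr) and 22.2 (N-si) under normoxia and 22.8 (H-scr) and 31.6 (H-si) under hypoxia. The hypoxic levels were 1.51-fold (interval 1.42 to 1.61) and 1.42-fold higher (interval 1.35 to 1.502) in scrambled and TET1-si cells, and the difference between these responses had an interval that included 0 (log2 ratio -0.20 to 0.04). ARNT2 (ENSG00000172379, chr15:80696692-80890278, plus strand), a paralog best known from neurons, was at 0.653, 1.46, 1.33 and 2.61 FPKM in the same order, from about 94, 225, 205 and 369 reads. Hypoxia went with a 2.03-fold higher ARNT2 level in scrambled cells (interval 1.59 to 2.63) and knockdown in normoxia with a 2.23-fold higher one (interval 1.75 to 2.88). On the scale with the pseudocount, the former is 0.92 and is not counted as 2-fold. ARNT supplied 92.4% to 95.9% of the beta subunit transcripts. EPAS1 stood at 0.880 of the ARNT level in N-scr, 0.953 in H-scr and 1.21 in N-si, but at 1.98 times it in H-si.

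CITED2 (ENSG00000164442, chr6:139693393-139695757, minus strand) competes with HIF alpha subunits for CBP and p300 and is itself a hypoxia-inducible gene. Its FPKM was 12.8 (N-scr) and 14.2 (N-si) under normoxia and 33.4 (H-scr) and 43.7 (H-si) under hypoxia. Both hypoxic libraries were above both normoxic ones, 2.60-fold in scrambled cells (interval 2.34 to 2.88) and 3.08-fold in TET1-si cells (interval 2.80 to 3.39). The hypoxia response of CITED2 was 0.25 larger in TET1-si cells on the log2 scale (interval of the log2 ratio 0.05 to 0.45). Its TET1-si change was 0.39 in hypoxia and 0.14 in normoxia, and the latter changed sign to -0.03 with median-of-ratios scaling.

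**Figure D3:**
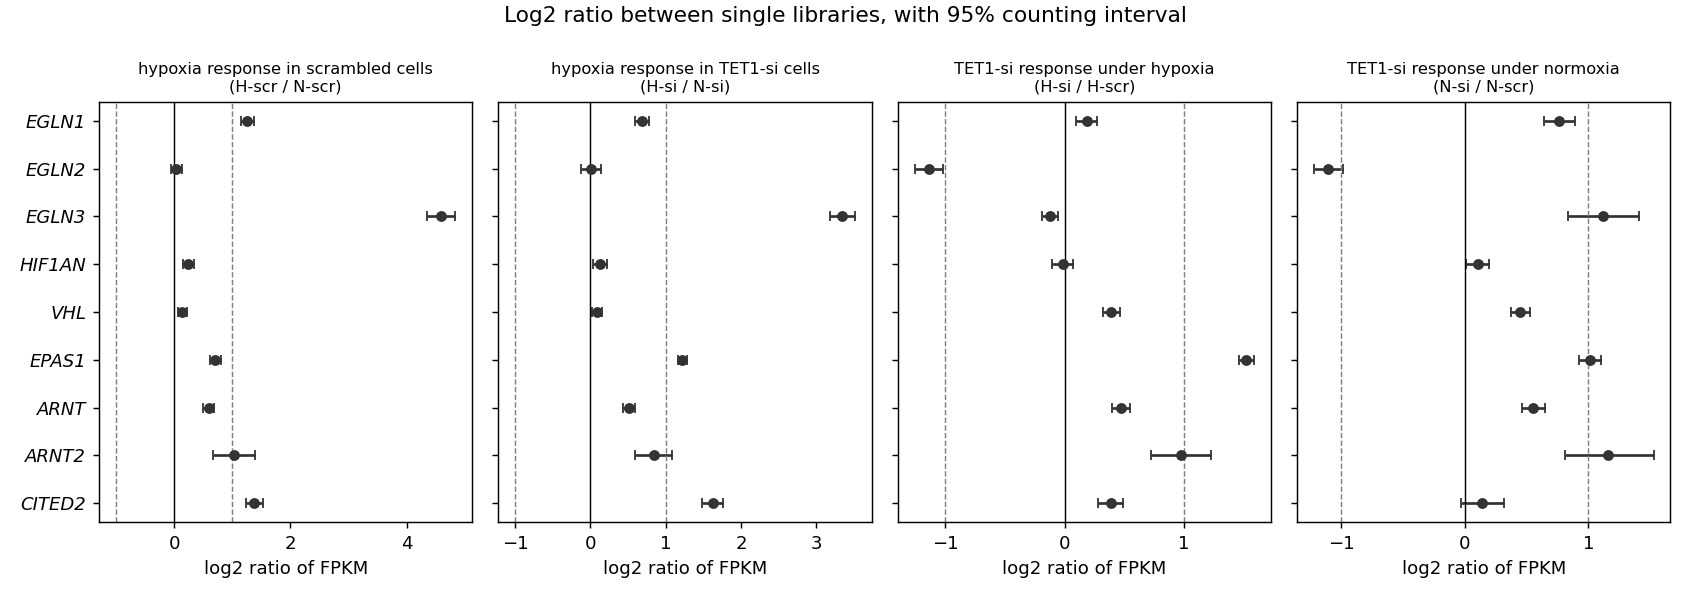
Log2 ratio of FPKM between single libraries (horizontal axes, own scale per panel) for 9 of the genes, with HIF3A left out for its low reads. Points are ratios, bars are 95% counting intervals without any spread between cultures, the solid line is no difference and dashed lines mark 2-fold. EGLN3 is far to the right in both hypoxia panels, whereas in the TET1-si panels EGLN2 is left of the 2-fold line and EPAS1 is right of it.

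Counted together, 4 of the 10 genes reached a 2-fold higher level in hypoxic scrambled cells (EGLN1, EGLN3, HIF3A and CITED2) and none was lower. The HIF3A call rests on the small pseudocount, since with a pseudocount of 1 its change was 0.62 and the count 3. Among all 15057 genes with a mean of at least 1 FPKM, which do not include HIF3A, 12.9% were as much higher and 4.53% as much lower. The median change of the 10 genes was 0.81 on the log2(FPKM + 0.1) scale, against 0.05 over all genes, and all 10 changes were above 0, although that of EGLN2 turned negative with median-of-ratios scaling. In TET1-si cells 3 of 10 were at least 2-fold higher in hypoxia (EGLN3, EPAS1 and CITED2) and none was lower, beside 12.5% higher and 8.66% lower of all genes. The median was 0.59 against 0.03.

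TET1 knockdown in hypoxia left 1 gene at least 2-fold higher (EPAS1) and 2 lower (EGLN2 and HIF3A), beside 12% and 8.35% of all genes. Without HIF3A, which those shares leave out, 1 of 9 was higher and 1 lower (11.1% each), near the shares of all genes. In normoxia 3 were higher (EGLN3, EPAS1 and ARNT2) and 1 was lower (EGLN2), beside 12.1% and 5.56%. The medians were 0.29 in hypoxia and 0.50 in normoxia, against 0.10 and 0.15 over all genes. These background medians depend on scaling, since median-of-ratios scaling brought both to near 0 (-0.01 and -0.004). Of the 3 normoxic increases all lay between 1.01 and 1.09, so that none passed 2-fold with that scaling. For the difference of hypoxia responses no gene was at least 2-fold higher and 2 were lower (EGLN3 and HIF3A), beside 4.87% and 7.86%. The HIF3A difference rests on its listed 0 in N-si and has no counting interval. Without HIF3A 1 of 9 was lower (11.1%). The hypoxia and TET1-si comparisons share libraries and are not independent of each other.

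The order of levels within a library, on the per-length FPKM scale, also moved with the conditions. In N-scr, EGLN2 and VHL were the most abundant and did not differ beyond counting error, followed by HIF1AN and ARNT, and EGLN3 was 8th. In N-si, VHL led at 54.8 FPKM, and HIF1AN and EPAS1 followed without a difference beyond counting error. EGLN3 led in H-scr, above VHL and EGLN2, which did not differ from each other. Further down, ARNT did not differ from EPAS1 beyond counting error, nor EPAS1 from EGLN1. Only adjacent levels were compared, so ARNT was not set against EGLN1. EPAS1 led in H-si, just above VHL and EGLN3, a pair that did not differ. ARNT2 and HIF3A were 9th and 10th in all 4 libraries. Counting error alone separates such neighbours, and the spread between cultures is unknown.

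To compare the members with their surroundings on the chromosome, each was set beside the 25 nearest protein-coding genes on either side with a mean of at least 1 FPKM. EGLN2 lay in a stretch of lower genes (chr19:39926796-42882921, hg19): its 50 neighbours had a median TET1-si change of -0.65 in hypoxia and -0.50 in normoxia, with 46 and 44 of 50 below 0. EGLN2 itself was at -1.13 and -1.10, which is 0.49 and 0.60 below those medians, and 5 neighbours were lower still in each state. ARNT, by contrast, was close to its surroundings, at 0.47 and 0.55 against neighbour medians of 0.40 and 0.41. EPAS1 stood out from its stretch, at 1.52 and 1.01 against medians of 0.02 and 0.04. Its nearest genes on either side nevertheless were higher too, PRKCE by 1.11 and 2.27 and ATP6V1E2 by 1.02 and 1.70, in hypoxia and normoxia. Those 2 genes were singled out after their values were seen. EGLN3 matched its neighbours in hypoxia (-0.12 against -0.14) but not in normoxia (1.09 against -0.14). ARNT2 was at 0.93 and 1.05 against neighbour medians of 0.15 and 0.09. EGLN1 was at 0.18 in hypoxia and 0.76 in normoxia, in a stretch that was itself higher, with neighbour medians of 0.35 and 0.45. VHL was at 0.39 and 0.45 against neighbour medians of 0.15 and 0.29.

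**Figure D4:**
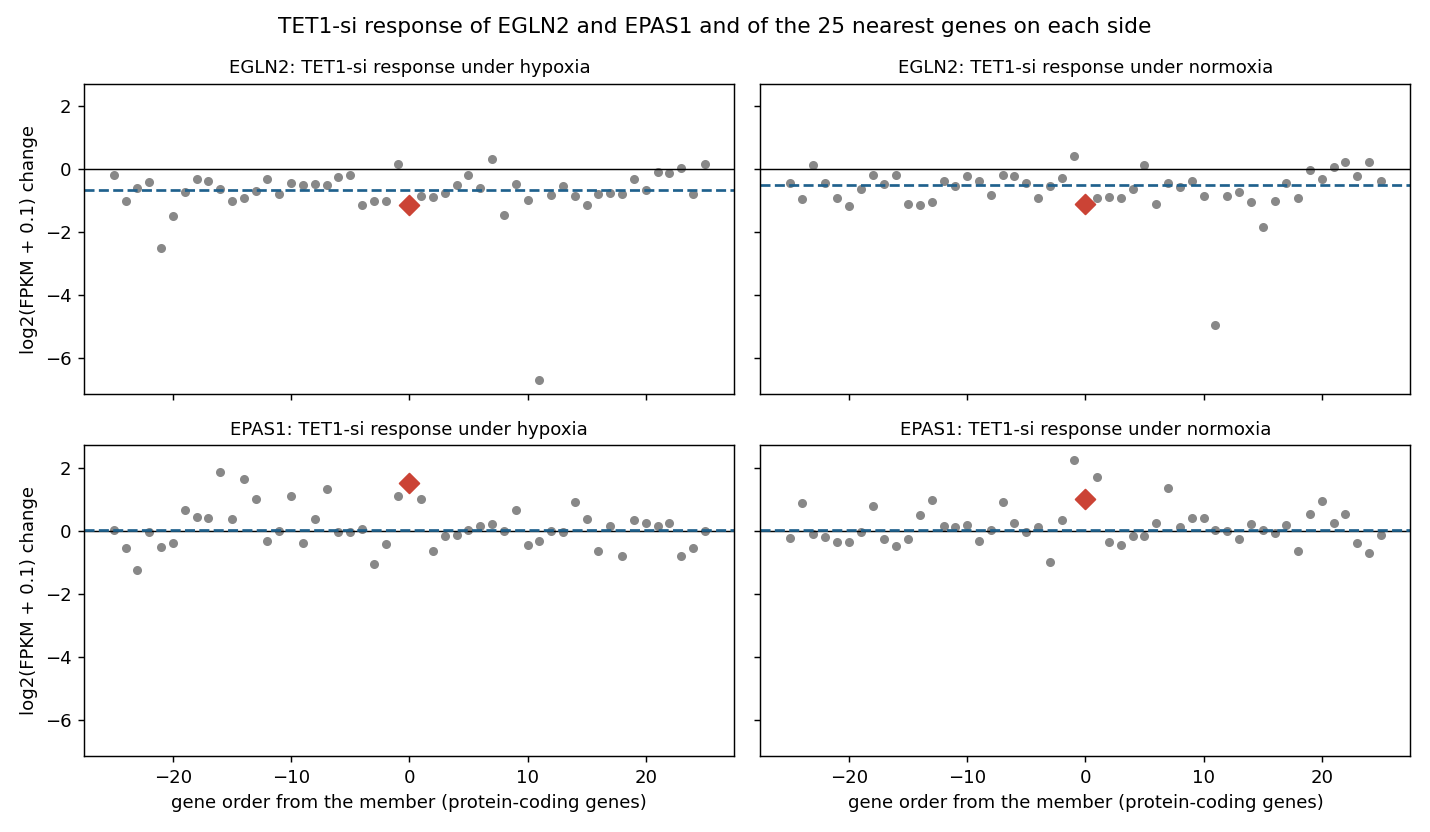
TET1-si change as log2(FPKM + 0.1) (vertical axis, shared) of EGLN2 and EPAS1 (diamonds) and of the 25 nearest protein-coding genes on each side (grey points), in gene order from the member (horizontal axis), in hypoxia and normoxia. Dashed lines are the medians of the neighbours, -0.65 and -0.50 around EGLN2 and 0.02 and 0.04 around EPAS1.

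The genes most like EGLN3 and EPAS1 were sought among 9464 protein-coding genes with a mean of at least 5 FPKM, by the Euclidean distance between mean-centred log2(FPKM + 0.1) profiles over the 4 libraries. NDRG1, a long-known hypoxia-induced gene, was closest to EGLN3 at a distance of 0.79, with 15.9 and 28.0 FPKM in normoxia (N-scr, N-si) and 497 and 579 in hypoxia (H-scr, H-si). PLEKHG6 (distance 1.13) and CALCOCO1 (1.14) followed. SEMA4C, a semaphorin, was closest to EPAS1 at 0.02, with 7.25, 14.7, 11.9 and 33.8 FPKM in the same order, followed by FGGY (0.08) and CDC42BPG (0.10). The distances were smaller around EPAS1 than around EGLN3. They also depend on the size of the changes, which was larger for EGLN3, so they do not compare likeness between the EPAS1 and EGLN3 sets. A likeness over 4 libraries describes these libraries and no more.

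Other genes of the pathway were grouped by role. Among 19 genes of HIF turnover (VHL complex partners, neddylation enzymes, SIAH ligases, chaperones and deubiquitinases), none was at least 2-fold higher in any of the 4 comparisons. Of all genes 12% to 12.9% were as much higher in each. HSP90AB1, an HSP90 chaperone that stabilizes HIF alpha, was at 1970 FPKM in N-scr against 985 in H-scr, exactly on the 2-fold threshold. It was the only gene of the list counted as lower there, beside 4.53% of all genes. Its relative HSP90AA1 was at -1.20 after knockdown in hypoxia (1005 against 437 FPKM) and -1.18 in normoxia. No other gene of the list was at least 2-fold lower after knockdown, beside 8.35% (hypoxia) and 5.56% (normoxia) of all genes. NEDD8, the modifier that activates the VHL ligase, was at -0.88 after knockdown in hypoxia. The list medians were -0.25 and -0.29 for the hypoxia responses and -0.22 and -0.19 for the TET1-si responses in hypoxia and normoxia, each below that of all genes.

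Of 9 coactivator genes 8 passed the filter on low values. In both the hypoxia response of scrambled cells and the TET1-si response in hypoxia 1 of the 8 was at least 2-fold higher, in the remaining 2 comparisons 0 were, and 0 were lower in any. Of all genes about 12% to 12.9% were as much higher in each comparison, so these counts were near the background. CITED4, a relative of CITED2, was 2.20-fold higher in H-scr than in N-scr, and the mediator kinase CDK8 was at 0.651 of its normoxic level. NCOA2, a p160 coactivator, was 2.19-fold higher after knockdown in hypoxia and 2.01-fold in normoxia, the latter just short of 2-fold once the pseudocount is added. NCOA1 was 1.79-fold higher after knockdown in hypoxia. Among 11 other bHLH-PAS genes, the protein family of ARNT and the alpha subunits, 8 passed the filter. At least 2-fold higher were 2 of them in each hypoxia response and 3 in each TET1-si response, and lower was 1 in the hypoxia response of TET1-si cells and 1 after knockdown in normoxia. Beside them, 12.9% and 12.5% of all genes were higher in the hypoxia responses and 12% and 12.1% in the TET1-si responses, and 8.66% and 5.56% were lower in the 2 comparisons where 1 member was. NPAS1, named by the size of its response, was at 0.0788 FPKM (N-scr) and 0.580 (N-si) under normoxia and 0.649 (H-scr) and 4.12 (H-si) under hypoxia. It passed the filter through H-si alone, which favours its rise in H-si. The hypoxia response of scrambled cells compares 2 libraries under 1 FPKM. The circadian gene ARNTL (BMAL1) was 2.92-fold higher in H-scr than in N-scr but 1.11-fold higher in H-si than in N-si. NPAS2 was 3.12-fold higher after knockdown in hypoxia (3.01 against 0.963 FPKM) and 7.20-fold in normoxia (5.71 against 0.794). Both scrambled levels of NPAS2 lay under 1 FPKM, so it passed the filter through the knockdown libraries, which favours its rise after knockdown. The counts above include NPAS1 as higher in each hypoxia response and each TET1-si response, and NPAS2 as higher in each TET1-si response. Of 7 other oxygen-dependent dioxygenase genes, 1 was at least 2-fold lower in H-scr than in N-scr and 1 higher after knockdown in hypoxia, with 0 past 2-fold elsewhere, beside 4.53% and 12% of all genes. The ribosomal protein hydroxylase OGFOD1 was lower in hypoxia (0.487 of normoxia in scrambled cells) and KDM6A was 1.61-fold higher. The histone demethylase KDM5A was 2.19-fold higher after knockdown in hypoxia, while ADO, a thiol dioxygenase, was at 0.629.

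Of 28 known HIF target genes 26 passed the filter. In both hypoxia responses 15 of them were at least 2-fold higher and none was lower, beside 12.9% (scrambled) and 12.5% (TET1-si) higher and 4.53% and 8.66% lower of all genes, with medians of 1.59 in scrambled and 1.29 in TET1-si cells. After knockdown in hypoxia none was at least 2-fold higher and 3 were lower, beside 12% and 8.35% of all genes, with a median of -0.20 against 0.10 over all genes and 11 of the 26 above 0. In normoxia 3 were higher and 5 lower, beside 12.1% and 5.56%. NDRG1 was 31.2-fold higher with the scrambled hairpin and 20.6-fold after knockdown. CA9, a carbonic anhydrase, was at 0.180 FPKM in N-scr, 7.82 in H-scr and 0.506 in H-si, and was listed at 0 in N-si. It passed the filter through H-scr alone, which favours its rise in H-scr and its fall in H-si. The counts above include CA9 as higher in both hypoxia responses and as lower after knockdown in both oxygen states. Its calls that involve N-si rest on the listed 0. SLC2A3 was at 1.07 FPKM in N-scr and 0.126 in N-si, against 7.24 in H-scr and 4.47 in H-si. It passed the filter through the hypoxic libraries, which favours its rise in hypoxia. SLC2A3 is counted as higher in both hypoxia responses and as lower after knockdown in normoxia. The glycolytic gene ALDOC was 14.9-fold higher in H-scr than in N-scr and 5.31-fold higher in H-si than in N-si.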

How the data were processed

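RNA-Seq of 4 FaDu libraries was analysed, 1 per group and grouped by the sample labels. FPKM values were deposited by the authors, who made TruSeq mRNA libraries, sequenced 100 bp reads (single end per the labels, paired-end per the methods) and processed them with TopHat and Cufflinks against hg19 and Ensembl gene models. Tool versions, Ensembl release, filters and strand handling are not given in the sources used here. Of 62077 deposited entries, those on standard chromosomes were kept, and 111 gene identifiers listed more than once were left out.

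Changes were computed as log2(FPKM + 0.1), which understates the change of low genes, and are called from 2-fold. No test was run, since no group has a replicate and FPKM are not counts. The depth was recovered from 5285 single-exon genes, whose low values came out as whole reads for 95.4% to 97.0% (tolerance 0.05 reads): 22890000 (N-scr), 24470000 (N-si), 24500000 (H-scr) and 22450000 reads (H-si). Approximate reads are FPKM times depth times the GENCODE v44lift37 canonical transcript length within the listed locus, less 212 bp. Cufflinks shares reads between isoforms, so they are estimates. From them came 95% Clopper-Pearson intervals of ratios, computed with SciPy 1.17.1, and intervals of the difference of hypoxia responses by the delta method. The calculations were tested on simulated data.

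The members, gene lists and tests were chosen with earlier results of these data known. Named were all members, 2 genes per list with the largest hypoxia response in scrambled cells and 2 with the largest TET1-si response in hypoxia (mean FPKM of at least 1), and the 3 genes most like EGLN3 and EPAS1. Alternatives were other pseudocounts, TPM, median-of-ratios and upper-quartile scaling, other filters and other numbers of neighbours.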

Additional observations from a re-analysis of the deposited data

Results flagged for a closer look

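The TET1-si change of EGLN3 pointed in opposite directions in the 2 oxygen states, -0.12 in hypoxia and 1.09 in normoxia on the log2(FPKM + 0.1) scale, with counting intervals of the log2 ratio of -0.19 to -0.05 and 0.84 to 1.41. The directions held under the 3 other scalings and the 3 other pseudocount settings, with -0.24 to -0.05 in hypoxia and 0.89 to 1.14 in normoxia. With 1 library per group the difference between the states was not tested.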

How the results depend on the processing

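With a pseudocount of 1, TET1 knockdown in hypoxia left 1 member at least 2-fold lower, knockdown in normoxia left 0 higher, for the difference of hypoxia responses 1 was lower, and HIF3A was no longer 2-fold higher in H-scr than in N-scr (3 members). Without a pseudocount the count lower for the difference of hypoxia responses was also 1, since HIF3A, listed at 0 in N-si, gives no value. With TPM rescaling 2 members (EPAS1 and ARNT2) were at least 2-fold higher after knockdown in hypoxia. With median-of-ratios and with upper-quartile scaling 0 were at least 2-fold higher after knockdown in normoxia. The other 53 of 60 recounts stayed within 1.5 times the main count, and 7 of 50 member changes, all under 0.15 in size, changed sign under at least 1 setting. Around EGLN2 the neighbour median in normoxia was -0.30 with 50 genes on each side, and with 10 genes on each side the medians were -0.22 around EGLN3 (hypoxia response in scrambled cells) and 0.55 around ARNT (knockdown in normoxia). Without the filter on low values, 8.01% of all genes were at least 2-fold higher and 2.93% lower in H-scr than in N-scr, 4.13% lower in hypoxia in TET1-si cells, 7.49% higher and 5.46% lower after knockdown in hypoxia, and 6.56% higher after knockdown in normoxia. From a mean of 5 FPKM, 8.39% and 7.63% were higher in the hypoxia responses of scrambled and TET1-si cells, and 2.49% for the difference. No paired analysis was possible because each group has 1 library, so leaving out a replicate could not be run either. Depth limits HIF3A and TET1, read from at most 76 reads, and the spread between cultures is unknown for every gene.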
